A study of Mus musculus with 6 samples.

Results

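Ki-67 and its partners on mitotic chromosomes were followed as 10 genes, listed by symbol for the known binding and location of their proteins. They were Mki67 itself, its FHA-domain ligand gene Nifk, the kinesin gene Kif15, the phosphatase adaptor gene Cdca2, the PP1 catalytic subunit genes Ppp1ca, Ppp1cb and Ppp1cc, and the nucleolar protein genes Npm1, Ncl and Rrp1b. Each symbol matched 1 of the 54146 genes in the count tables, and all 10 were among the 13755 genes with enough reads to be tested. The cells were 4T1, an established BALB/c mouse mammary carcinoma line, either wild type (WT) or from 2 Mki67-/- clones, with 2 RNA-seq libraries in each of the 3 groups. All groups were grown in the same medium without a treatment. Each clone is a single line, and the labels do not say how the deletion was made, which part of Mki67 it removed, or whether a group was cultured more than once. The p-values therefore reflect the spread of these libraries alone, possibly a technical one, and effects of the missing gene and of growing a line from 1 cell cannot be told apart.

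Ki-67 is a large nuclear protein of cycling cells that coats the surface of chromosomes in mitosis, keeps them apart, and is a main organiser of the perichromosomal layer, a sheath of proteins that largely come from the nucleolus. It binds Nifk through its FHA domain and recruits PP1, the phosphatase that removes mitotic phosphates, through a short motif that it shares with Cdca2 (also called Repo-Man). Kif15, a spindle motor, was also found as a binding partner of Ki-67, and Npm1, Ncl and Rrp1b are nucleolar proteins that gather in the perichromosomal layer.

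Reads assigned to genes numbered 10428970 and 16852152 in the WT libraries and 17103941 to 22658499 in those of the clones. Unmapped reads made up 14.0% and 11.8% in WT and 8.49% to 10.2% in the clones. The part of this difference in the results was not tested. Levels are given as CPM, gene counts relative to the library size and not divided by gene length, after scaling the libraries by TMM, with the mean ± SD of n = 2 libraries. Fitted changes are log2 fold changes from edgeR's quasi-likelihood test with the standard error (SE), and a gene was called changed at a Benjamini-Hochberg adjusted p under 0.05 over all genes tested. Markers of mammary epithelium summed to 3368 to 3817 CPM in the WT libraries and 5419 to 5814 CPM in those of the clones, with Krt5 at 0 and 8 of 10 tested. Of the leukocyte markers 1 of 8 was tested, Cd3e and Adgre1 were at 0, and the list summed to 0.986 to 1.30 CPM in WT, 2.20 to 2.42 CPM in clone 1 and 3.12 to 3.37 CPM in clone 2. Nearly all of that sum was Csf1r, a receptor of macrophages, at 1.14 ± 0.221 CPM in WT, 2.22 ± 0.221 CPM in clone 1 and 3.12 ± 0.166 CPM in clone 2. Markers of fibroblasts and endothelium summed to 0.353 to 0.590 CPM, with Cdh5 and Kdr at 0 and 0 of 7 tested. The part of these markers in the results was not tested.

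The 10 genes did not move as a block. Mki67 fell strongly and Rrp1b rose in both clones, Ppp1ca rose and Ppp1cc fell to a smaller extent in both, while calls for Cdca2, Kif15, Ppp1cb and Npm1 came from 1 clone each. In clone 1, 5 of the 10 genes were called, 2 higher and 3 lower, where 50.9% of all genes tested were called, 24.7% higher and 26.2% lower. In clone 2, 7 were called, 2 higher and 5 lower, against 53.4% of all genes, 25.3% higher and 28.2% lower. For the mean of both clones against WT the count was also 7, with 2 higher and 5 lower, against 56.0% of all genes, 26.6% higher and 29.4% lower. The share of members called was thus near the background in clone 1. In clone 2 and in the mean it was higher through the lower calls, which include Mki67, the targeted gene. With so few genes this difference was not tested, and the comparisons share the WT libraries. Without clone 2 replicate 1, the count in clone 2 was 4, and with any of the libraries left out it lay between 4 and 7 in clone 1.

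**Figure D1:**
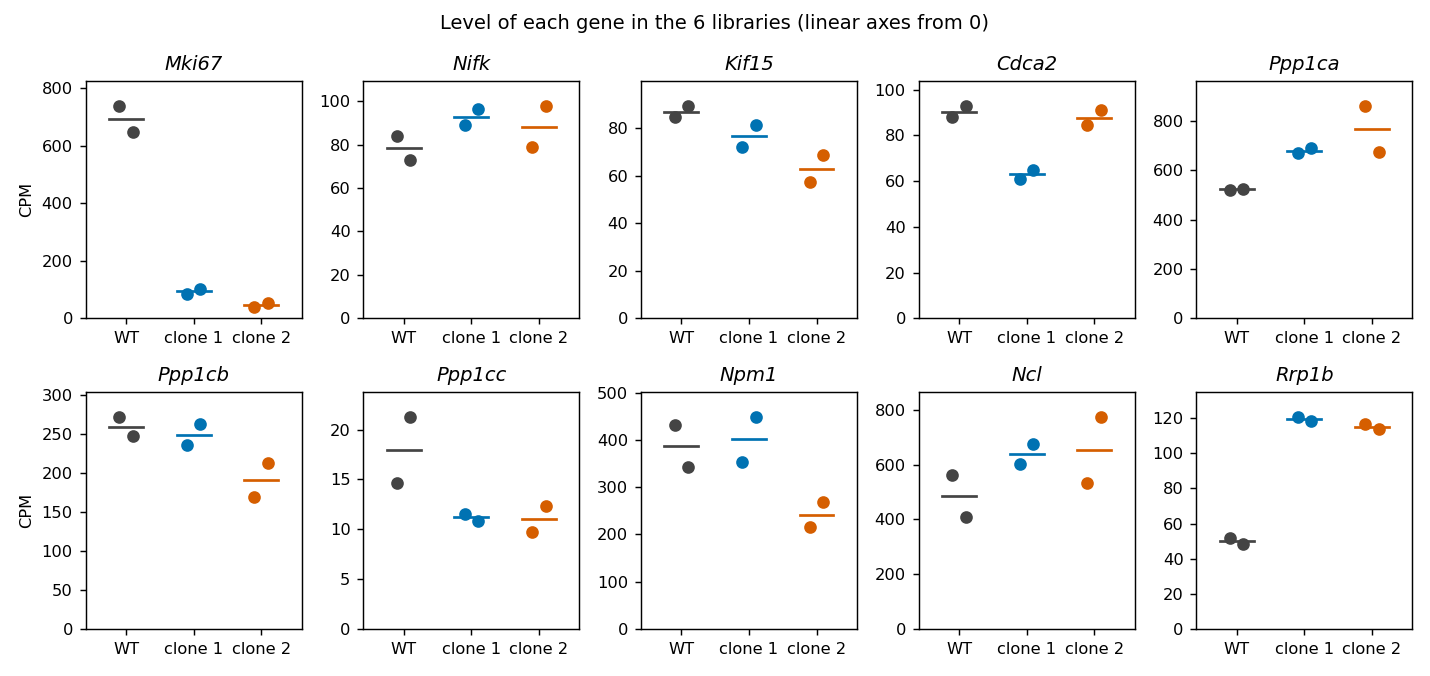
Level of each of the 10 genes in CPM (y axis, linear from 0) in the libraries of WT, clone 1 and clone 2. Points are single libraries and lines are the means of 2 libraries. Mki67 is low and Rrp1b is high in all 4 clone libraries, and Cdca2 is low in clone 1 alone.

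Mki67 (ENSMUSG00000031004, GRCm38 chr7:135689784-135716361, minus strand) checks the labels, since it is the targeted gene. It ranked 68th and 91st by CPM among the genes tested in the WT libraries, 2422nd and 1979th in those of clone 1, and 5013th and 4075th in those of clone 2. Its level was 692 ± 63.0 CPM in WT, 94.2 ± 11.8 CPM in clone 1 and 46.3 ± 9.07 CPM in clone 2. Relative to the WT mean, the clone 1 libraries retained 12.4% and 14.8% of the level, and those of clone 2 retained 5.77% and 7.62%. All clone libraries lay far below both WT libraries, and the clones did not overlap with each other. The fitted level was 7.35-fold lower in clone 1 (log2 change -2.88, SE 0.149, adjusted p = 4.03e-10) and 14.9-fold lower in clone 2 (log2 change -3.90, SE 0.157, adjusted p = 2.77e-11). Between the clones, clone 2 was lower by a log2 change of -1.02 (SE 0.143, adjusted p = 0.000162). The remaining reads numbered 1947 and 2280 in clone 1 and 678 and 1222 in clone 2, far above the 3 counts that would set the detection floor. Counts per gene do not show which exons these reads came from, and in bulk RNA fewer cells that express a gene and less of its RNA per cell cannot be told apart.

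The promoter of Mki67 and that of Kif15, the other member whose promoter held more than 1 match to the CHR motif, are shown because this motif is bound by the DREAM and MMB complexes, which control cell cycle genes. A table of RefSeq promoters on GRCm38.p6 held 7 of the 10 members. Printed are the 250 bases before each start site, 5′ to 3′ on the strand of the gene, with capitals for matches to the CHR motif (TTTGAA, or TTCAAA for its other strand) and to the CCAAT box (CCAAT, or ATTGG for its other strand). The Mki67 window is chr7:135716380-135716629 on the minus strand, and the Kif15 window is chr9:122950831-122951080 on the plus strand.
Mki67: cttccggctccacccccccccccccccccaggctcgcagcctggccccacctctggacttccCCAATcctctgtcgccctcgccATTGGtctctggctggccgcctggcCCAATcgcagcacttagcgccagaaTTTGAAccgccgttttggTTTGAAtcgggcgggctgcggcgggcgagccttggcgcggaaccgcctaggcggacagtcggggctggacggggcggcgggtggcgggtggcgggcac
Kif15: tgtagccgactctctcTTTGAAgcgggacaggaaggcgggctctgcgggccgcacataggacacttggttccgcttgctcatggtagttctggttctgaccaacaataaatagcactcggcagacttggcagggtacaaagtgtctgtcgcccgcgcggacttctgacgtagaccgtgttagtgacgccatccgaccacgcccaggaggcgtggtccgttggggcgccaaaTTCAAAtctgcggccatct

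The Mki67 window held 2 CHR matches, which began 116 and 98 bases before the start site, and 3 CCAAT boxes, which began 188, 166 and 141 bases before it. No match overlapped another one. Kif15 had CHR matches that began 234 and 19 bases before its RefSeq start site, the latter on the other strand, and its window held no CCAAT box. In the GENCODE annotation Kif15 starts at position 122951046, inside this window, and the second match lies past that start. Among 32851 promoter windows of this length, 16.0% held at least 1 CHR match and 1.81% held 2 or more, while 33.8% held at least 1 CCAAT box and 2.79% held 3 or more. Nifk and Ncl had 1 CHR match each, the first of the annotated Rrp1b start sites had 1 CCAAT box, and Ppp1cb and Ppp1cc had neither motif. A match describes these letters in the window and does not show that a factor is bound there.

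Of the binding partners of Ki-67 outside the phosphatase, Nifk was not called in either clone and Kif15 fell in clone 2. Nifk (ENSMUSG00000026377, chr1:118321839-118333822, plus strand), whose protein docks on the FHA domain and takes part in ribosomal RNA maturation, had 83.9 and 73.0 CPM in WT, 88.9 and 96.3 CPM in clone 1, and 79.0 and 97.6 CPM in clone 2. The clone 1 libraries lay above WT and those of clone 2 spread across the WT values. No change was called in clone 1 (log2 change 0.24, 95% interval -0.03 to 0.52, adjusted p = 0.134) or in clone 2 (log2 change 0.17, 95% interval -0.10 to 0.45, adjusted p = 0.277) by edgeR's quasi-likelihood test. Without WT replicate 1, the clone 1 difference was 0.35 on the log2 scale with an adjusted p of 0.0431, and without a filter on low counts it was 0.32 (adjusted p = 0.0472). With the median of each chromosome removed, Nifk was called in both clones, with 0.39 (adjusted p = 0.0220) for clone 1 and 0.35 (adjusted p = 0.0326) for clone 2.

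Kif15 (ENSMUSG00000036768, chr9:122951046-123018733, plus strand), a plus-end directed motor that helps to keep the poles of the bipolar spindle apart, had 84.6 and 89.2 CPM in WT. It had 71.9 and 81.2 CPM in clone 1 and 57.3 and 68.8 CPM in clone 2. Every clone library lay below both WT libraries, and clone 2 lay below clone 1. The fall was called in clone 2 (log2 change -0.46, SE 0.126, adjusted p = 0.0056), and in clone 1 the log2 change was -0.18 (95% interval -0.45 to 0.08, adjusted p = 0.236). The difference between the clones, -0.28, had an adjusted p of 0.115. The clone 2 call was lost without clone 2 replicate 1 (log2 change -0.33, adjusted p = 0.0846).

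Cdca2 (ENSMUSG00000048922, chr14:67676331-67715841, minus strand), whose protein brings PP1 to chromosomes at mitotic exit in parallel with Ki-67, was lower in clone 1 alone. It had 88.3 and 92.7 CPM in WT, 61.1 and 65.1 CPM in clone 1, and 84.4 and 91.0 CPM in clone 2. The clone 2 libraries overlapped with WT, and those of clone 1 lay below all others. The log2 change was -0.52 in clone 1 (SE 0.115, adjusted p = 0.00134) and -0.04 in clone 2 (95% interval -0.29 to 0.20, adjusted p = 0.763). Tested directly, clone 2 was higher than clone 1 by 0.48 (SE 0.114, adjusted p = 0.00773). This call was lost without clone 1 replicate 1 (0.43, adjusted p = 0.128), without clone 1 replicate 2 (0.52, adjusted p = 0.0584) or without clone 2 replicate 2 (0.41, adjusted p = 0.0602). Genes of chromosome 14 had a median log2 change of -0.24 in clone 1 and 0.08 in clone 2, and with the median of each chromosome removed the Cdca2 change was -0.28 in clone 1 (adjusted p = 0.0597) and the clones differed by 0.15 (adjusted p = 0.385).

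The genes of the 3 PP1 catalytic subunits moved in different directions. Their proteins are near-identical phosphatases that differ mainly at their ends, and Ki-67 and Cdca2 are known to prefer the gamma form, the product of Ppp1cc. Ppp1ca (ENSMUSG00000040385, chr19:4192065-4195420, plus strand), the alpha form, had 521 and 525 CPM in WT, 668 and 691 CPM in clone 1, and 859 and 674 CPM in clone 2. All 4 clone libraries lay above WT. The rise was 0.38 in clone 1 (SE 0.126, adjusted p = 0.0201) and 0.55 in clone 2 (SE 0.127, adjusted p = 0.00161) on the log2 scale, with no difference called between the clones (0.17, adjusted p = 0.335). The clone 1 call was lost without clone 1 replicate 1 (0.40, adjusted p = 0.0682) or without clone 1 replicate 2 (0.36, adjusted p = 0.110), and with chromosome medians removed (0.31, adjusted p = 0.0581).

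Ppp1cb (ENSMUSG00000014956, chr5:32458843-32517433, plus strand), the beta form, which also serves in myosin phosphatase, had 272 and 247 CPM in WT, 236 and 263 CPM in clone 1, and 168.6 and 212.9 CPM in clone 2. Clone 1 overlapped with WT, and clone 2 lay below both groups. The log2 change was -0.06 in clone 1 (95% interval -0.33 to 0.21, adjusted p = 0.731) and -0.44 in clone 2 (SE 0.129, adjusted p = 0.00833), and the clones differed by -0.38 (SE 0.128, adjusted p = 0.0402). The clone 2 call was lost without clone 2 replicate 1 (-0.28, adjusted p = 0.126) and with chromosome medians removed (-0.27, adjusted p = 0.0869). That between the clones was lost without clone 2 replicate 1 (-0.22, adjusted p = 0.345), without clone 1 replicate 1 (-0.47, adjusted p = 0.0712) or without clone 1 replicate 2 (-0.31, adjusted p = 0.301), and with unstranded counts (-0.36, adjusted p = 0.0527).

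Ppp1cc (ENSMUSG00000004455, chr5:122158278-122175273, plus strand) had 14.7 and 21.3 CPM in WT, 11.5 and 10.9 CPM in clone 1, and 9.72 and 12.3 CPM in clone 2. The clone libraries lay below both WT libraries, which were themselves far apart. The log2 change was -0.70 in clone 1 (SE 0.181, adjusted p = 0.00425) and -0.72 in clone 2 (SE 0.183, adjusted p = 0.00352), and the 95% interval of the difference between the clones ran from -0.40 to 0.37. Without WT replicate 2 both calls were lost (-0.39 with an adjusted p of 0.106 in clone 1, and -0.40 with an adjusted p of 0.0929 in clone 2), and the clone 2 call was also lost without clone 2 replicate 1 (-0.56, adjusted p = 0.0841). The level itself is uncertain, because 4 annotated copies (Ppp1ccb, Gm14122, Gm9231 and Gm9315) matched 1506 of the 2384 bases of its longest coding transcript, 63.2%, at an identity of at least 95%. Reads that map to several places, 24.7% to 29.3% of all reads, were not counted to any gene.

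Divided by exon length, Ppp1ca was by far the most abundant of the 3 PP1 genes. Its share of their summed CPM per kb was 87.6% and 87.8% in the WT libraries, 91.4% and 91.0% in those of clone 1, and 94.9% and 92.1% in those of clone 2. The Ppp1cb share was 10.6% and 9.56% for WT, 7.45% and 7.99% for clone 1, and 4.30% and 6.71% for clone 2. That of Ppp1cc was 1.82% and 2.62% in WT and between 0.791% and 1.24% in the clone libraries. The Ppp1ca share was higher, and those of the other two genes lower, in every clone library than in either WT library. Between Ppp1ca and Ppp1cb alone, which have no such copies, the Ppp1ca share was 89.7% ± 0.654 in WT, 92.2% ± 0.380 in clone 1 and 94.4% ± 1.74 in clone 2 (SD, n = 2). These shares describe the libraries and were not tested.

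**Figure D2:**
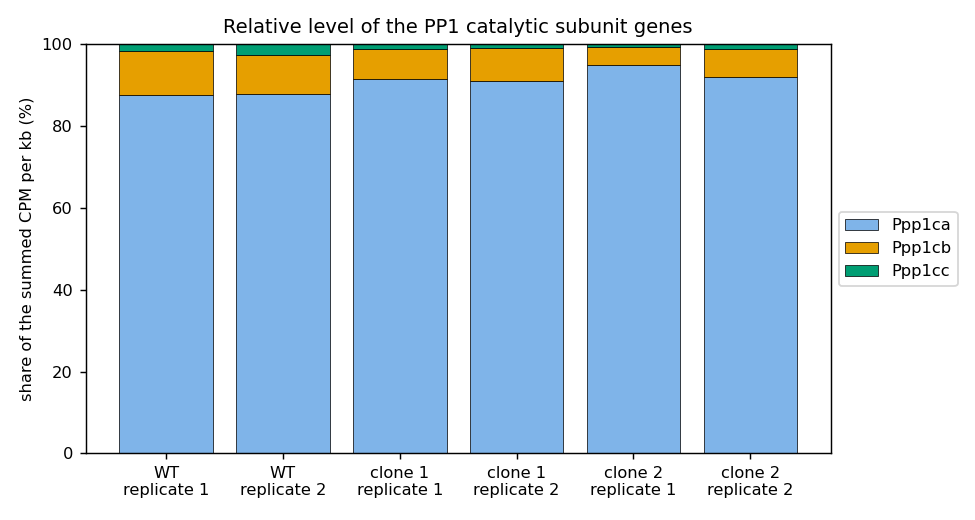
Share of each PP1 catalytic subunit gene in the summed CPM per kb of exon of all 3 (y axis, percent), one bar for each library. The Ppp1ca share runs from 87.6% to 87.8% in WT and from 91.0% to 94.9% in the clones.

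The 3 nucleolar genes each showed another pattern. Npm1 (ENSMUSG00000057113, chr11:33152287-33163206, minus strand), whose protein nucleophosmin is a chaperone of the granular part of the nucleolus, was lower in clone 2. It had 431 and 343 CPM in WT, 354 and 448 CPM in clone 1, and 216 and 268 CPM in clone 2, so that clone 1 spread across the WT range and clone 2 lay below all other libraries. The log2 change was 0.05 in clone 1 (95% interval -0.26 to 0.37, adjusted p = 0.794) and -0.68 in clone 2 (SE 0.149, adjusted p = 0.00138), and the clones differed by -0.73 (SE 0.149, adjusted p = 0.00326). Without clone 2 replicate 1 these were -0.52 (adjusted p = 0.0504) and -0.57 (adjusted p = 0.106). Copies of Npm1 matched 53.8% of its longest coding transcript, and the 4 annotated copies together held 7.08 to 9.97 reads for every 100 reads of Npm1.

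Ncl (ENSMUSG00000026234, chr1:86344719-86359400, minus strand), which encodes nucleolin, an RNA-binding protein of ribosomal RNA transcription and processing, had 564 and 408 CPM in WT, 602 and 674 CPM in clone 1, and 533 and 774 CPM in clone 2. Clone 1 lay above WT, and clone 2 overlapped with it. The log2 change was 0.39 in clone 1 (95% interval -0.04 to 0.83, adjusted p = 0.118) and 0.43 in clone 2 (95% interval -0.01 to 0.86, adjusted p = 0.0892), neither of which was called. Without WT replicate 1 both were called, at 0.65 (adjusted p = 0.0195) and 0.69 (adjusted p = 0.0147). In clone 1 this was also the case without clone 1 replicate 1 (0.47, adjusted p = 0.0448), and in clone 2 without clone 1 replicate 1, clone 1 replicate 2 or clone 2 replicate 1 (0.42 to 0.68, adjusted p = 0.0166 to 0.0230). Both were also called without a filter on low counts (0.48, adjusted p = 0.00159, and 0.51, adjusted p = 0.000742) and with chromosome medians removed (0.54, adjusted p = 0.0436, and 0.61, adjusted p = 0.0244), and that of clone 2 was called by DESeq2 (0.44, adjusted p = 0.0323) and in a fit of clone 2 and WT alone (0.44, adjusted p = 0.0319).

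Rrp1b (ENSMUSG00000058392, chr17:32036100-32062865, plus strand) encodes a nucleolar protein that is known to target PP1 to nucleoli. Its level was 51.8 and 48.1 CPM in WT, 121 and 119 CPM in clone 1, and 117 and 114 CPM in clone 2. The 4 clone libraries lay close together and at more than 2 times both WT values. The log2 change was 1.26 in clone 1 (SE 0.115, adjusted p = 2.22e-07) and 1.21 in clone 2 (SE 0.115, adjusted p = 3.16e-07), and the clones differed by -0.05 (adjusted p = 0.763). The 655 tested genes of chromosome 17 had a median log2 change of 0.55 in clone 1 and 0.17 in clone 2. With the median of each chromosome removed, the Rrp1b rise was 0.71 in clone 1 (adjusted p = 9.45e-05) and 1.04 in clone 2, and the difference between the clones was 0.33 (adjusted p = 0.0496). Its paralog Rrp1, which acts in large ribosomal subunit assembly, went the other way, with 259 ± 18.1 CPM in WT, 167.3 ± 1.46 CPM in clone 1 and 208 ± 18.6 CPM in clone 2 (n = 2 each; log2 change of the mean of both clones -0.48, adjusted p = 0.000649 by edgeR), and this change was -0.09 (adjusted p = 0.486) with the chromosome medians removed.

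**Figure D3:**
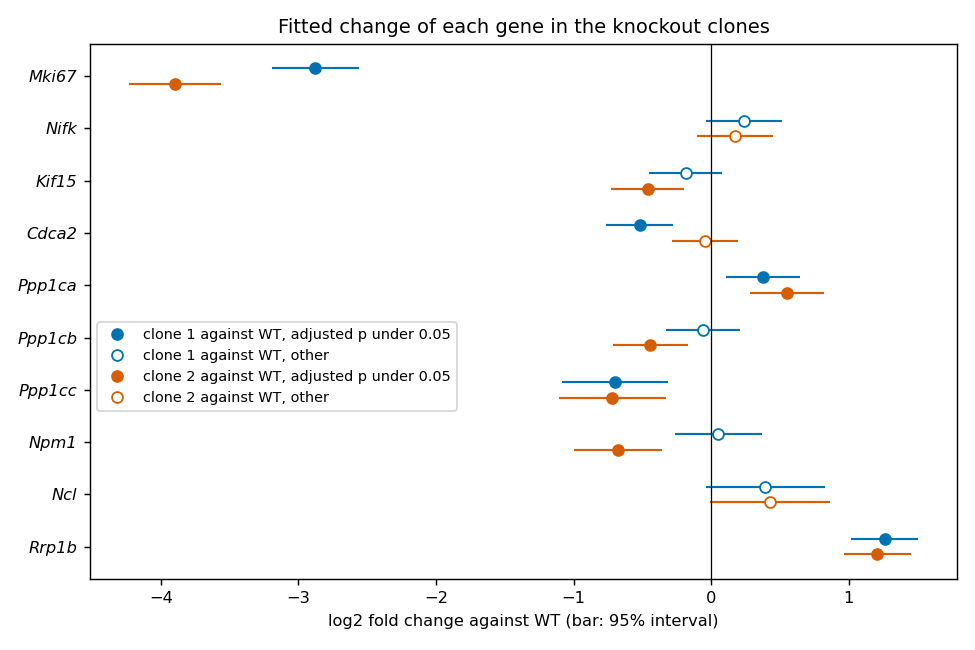
Log2 fold change of each gene in clone 1 and clone 2 against WT (x axis) with its 95% interval, where filled points have an adjusted p under 0.05. The largest changes are those of Mki67, -2.88 and -3.90, and Rrp1b, 1.26 and 1.21.

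The clones also differed from each other in 4 of the 10 genes, where 23.5% of all genes tested were called, 12.1% higher and 11.4% lower. Mki67, Ppp1cb and Npm1 were lower in clone 2 than in clone 1, and Cdca2 was higher. That count was 2 without clone 1 replicate 1, clone 1 replicate 2 or clone 2 replicate 1, and 3 without clone 2 replicate 2.

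Order of levels per kb of exon changed most through Mki67. In WT, Ppp1ca came first with 207 CPM per kb, followed by Npm1 with 145, Mki67 with 68.8, Ncl with 47.7, Nifk with 39.9 and Ppp1cb with 23.8. Cdca2 had 15.8, Kif15 7.89, Rrp1b 6.48 and Ppp1cc 5.25 CPM per kb. The ranges of Ncl and Nifk overlapped over the WT libraries, and all other neighbours were apart. Mki67 was 8th with 9.36 CPM per kb in clone 1 and 9th with 4.61 CPM per kb in clone 2, where its range overlapped with that of Kif15. With the longest coding transcript as the length, a setting added after the data were seen, Ppp1cb passed Nifk in WT, and Mki67 was 9th in clone 1, below Kif15, and 10th in clone 2, where Ppp1cc had 4.62 CPM per kb and Mki67 4.61. Values per kb depend on the length taken, since counts do not show which isoforms were present.

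The genes whose pattern over the 6 libraries was most like that of Mki67 were Lrrn4cl, Trp53inp1, Klhl24, Gpr146 and Stat5a. Likeness was the root mean square difference of log2 CPM after centring each gene, and came to 0.148, 0.220, 0.404, 0.459 and 0.459. It was ranked over 8841 genes whose average log2 CPM was 3 or more. Genes without a symbol or with a clone-type or mitochondrial name (such as Gm, Rik, AC or mt-) were left out. Lrrn4cl fell from a WT level of 51.6 ± 6.79 CPM to 7.17 ± 0.226 CPM (clone 1) and 3.37 ± 0.851 CPM (clone 2). Trp53inp1, a gene induced by p53, fell from 53.0 ± 9.22 CPM to 7.59 ± 0.366 CPM and 3.04 ± 0.203 CPM, and Stat5a, a transcription factor of prolactin signalling, from 28.8 ± 6.85 CPM to 5.23 ± 0.336 CPM and 3.40 ± 0.353 CPM. Since they were picked for this pattern, these values are a description.

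Genes of the pathways around Ki-67 were read from 8 lists with 174 entries, all of them tested. Their counts below are for the mean of both clones against WT, in which all genes tested had a median log2 change of -0.02, 26.6% of them called higher and 29.4% lower.

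Among the 15 mitotic kinesins and spindle partners other than Kif15, 1 was called higher and 8 lower, with a median of -0.27. Kif11, the main motor of spindle pole separation, whose work Kif15 can take over, fell from a WT level of 231 ± 0.336 CPM to 169.3 ± 14.2 CPM (clone 1) and 105 ± 20.9 CPM (clone 2) (log2 change -0.79, adjusted p = 1.94e-05). Hmmr, a spindle assembly protein, had a log2 change of -1.11 (adjusted p = 7.6e-07). Tpx2, the spindle partner of Aurora A, was called higher (0.30, adjusted p = 0.0191), and this was lost without clone 1 replicate 2 (0.27, adjusted p = 0.101), without clone 2 replicate 2 (0.25, adjusted p = 0.0525) with upper-quartile scaling (0.22, adjusted p = 0.0658) and with chromosome medians removed (0.02, adjusted p = 0.865). Without WT replicate 2, 3 of these genes were called lower.

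Of 22 genes listed as PP1 regulatory subunits of the nucleus and mitosis, 10 were called higher and 4 lower, with a median of 0.18. The list is broader than its name, since it also holds genes with other tasks, such as Ppp1r14b, Ppp1r15a and Ppp1r12a. These counts are thus not those of nuclear and mitotic subunits alone. Ppp1r14b, a PP1 inhibitor, rose from a WT level of 60.4 ± 6.57 CPM to 118 ± 7.61 CPM (clone 1) and 122 ± 1.43 CPM (clone 2) (log2 change 0.99, adjusted p = 1.22e-06). Ppp1r15a (GADD34), which directs PP1 to the translation factor eIF2 under stress, rose by 1.06 (adjusted p = 3.23e-06). The fallers included Ppp1r12a, a myosin phosphatase targeting subunit that pairs with Ppp1cb. It had 94.3 ± 3.90 CPM in WT, 82.0 ± 0.962 CPM in clone 1 and 65.0 ± 7.04 CPM in clone 2 (log2 change -0.37, adjusted p = 0.006). Once the chromosome medians were removed, its change was 0.02 (adjusted p = 0.874). Its paralog Ppp1r12b was called higher (0.28, adjusted p = 0.0385), and Ppp1r12c was not called (0.09, adjusted p = 0.498). Phactr1 was low everywhere, at 0.680 CPM in WT and 0.0886 CPM in clone 1, and had no read in clone 2. The number called lower was 2 without WT replicate 2.

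The 19 genes listed as phosphatases of mitotic exit and kinases that act on Ki-67 were split, with 5 higher, 8 lower and a median of -0.07. This list too is broader than its name, since it holds cyclins and regulators of PP2A, such as Ccnb2, Ensa, Arpp19 and Mastl. Ppp2cb, a catalytic subunit of PP2A, rose from a WT level of 136 ± 1.13 CPM to 254 ± 2.42 CPM (clone 1) and 253 ± 11.5 CPM (clone 2) (log2 change 0.90, adjusted p = 1.18e-06). The other catalytic gene, Ppp2ca, fell from 305 ± 26.2 CPM to 236 ± 6.27 CPM and 251 ± 5.38 CPM (log2 change -0.32, adjusted p = 0.00904). Mastl, the kinase (Greatwall) that holds PP2A-B55 inactive in mitosis, fell from 80.6 ± 11.4 CPM to 46.6 ± 4.34 CPM and 33.1 ± 2.62 CPM (log2 change -1.03, adjusted p = 1.05e-06). The Aurora kinases went apart, Aurka with a log2 change of 0.61 (adjusted p = 0.000118) and Aurkb with -0.81 (adjusted p = 3.65e-06).

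The 32 genes of nucleolar pre-rRNA processing were mostly higher, 25 against 1 lower, with a median of 0.73. The 1 lower gene was Rrp1, described above. Npm1 and Ncl were thus not called in the direction that most genes of this list took, whereas Rrp1b was. Rrp9, a protein of the U3 snoRNP, had 45.2 ± 0.768 CPM in WT, 92.9 ± 1.65 CPM in clone 1 and 152 ± 8.55 CPM in clone 2.

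Among 20 genes listed under the chromosomal passenger complex, condensin and the chromosome scaffold, 2 were higher and 9 lower, with a median of -0.13. These counts also cover regulators of cohesion and a kinase gene, such as Sgo2a, Cdca5, Pds5b and Haspin, which were among those called lower. Sgo2a, which protects centromeric cohesion, fell from a WT level of 75.4 ± 2.73 CPM to 40.2 ± 4.69 CPM (clone 1) and 33.1 ± 8.01 CPM (clone 2) (log2 change -1.04, adjusted p = 3.78e-06). The 2 higher genes, Ncapd2 (0.30, adjusted p = 0.0214) of condensin and Cdca8 (0.25, adjusted p = 0.0426) of the passenger complex, lost their calls in several settings. For Ncapd2 these included the omission of WT replicate 1, clone 1 replicate 2 or clone 2 replicate 1 (0.21 to 0.28, adjusted p = 0.0588 to 0.127). For Cdca8 they included the omission of any library but WT replicate 1 (0.20 to 0.27, adjusted p = 0.0594 to 0.174) and a replicate block (0.25, adjusted p = 0.0761).

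Of 22 genes of the nuclear envelope and heterochromatin anchoring, 6 were higher and 4 lower, with a median of -0.07. Lmna, the gene of lamins A and C, rose from a WT level of 1253 ± 242 CPM to 1958 ± 110 CPM (clone 1) and 2148 ± 39.0 CPM (clone 2) (log2 change 0.71, adjusted p = 9.2e-05). Banf1, which cross-links chromatin when the nucleus reforms, rose by 0.70 (adjusted p = 2.02e-05). The LEM-domain genes were split. Tmpo (-0.54, adjusted p = 0.000198) and Lemd3 (-0.56, adjusted p = 0.000373) fell, and with chromosome medians removed these values were -0.15 (adjusted p = 0.214) and -0.17 (adjusted p = 0.210). Ankle2 also fell (-0.47, adjusted p = 0.000494), whereas Emd (0.60, adjusted p = 0.000873) and Lemd2 (0.60, adjusted p = 0.000412) rose.

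Regulators of Mki67 transcription and Ki-67 turnover, 24 genes, had 13 higher and 5 lower members and a median of 0.34. The list mixes activators, repressors and turnover factors, so these counts imply no direction for Mki67, which is itself the targeted gene. Ccnd1, the gene of cyclin D1, rose from a WT level of 544 ± 12.4 CPM to 1942 ± 48.1 CPM (clone 1) and 2204 ± 96.1 CPM (clone 2) (log2 change 1.93, adjusted p = 4.55e-10). Mybl2, the activating subunit of the MMB complex, rose from 36.0 ± 2.26 CPM to 86.5 ± 2.91 CPM and 125 ± 2.49 CPM (log2 change 1.53, adjusted p = 7.48e-09). Rbl2 (p130, log2 change -0.81, adjusted p = 2.38e-05) and Lin37 (-0.69, adjusted p = 0.00105), which belong to the repressive DREAM complex, fell.

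Finally, 20 proliferation markers used beside Ki-67 had 9 higher and 5 lower members and a median of 0.16. Tk1, thymidine kinase of S phase, rose from a WT level of 82.4 ± 9.03 CPM to 123 ± 7.71 CPM (clone 1) and 154 ± 16.6 CPM (clone 2) (log2 change 0.74, adjusted p = 3.56e-05). Top2a, topoisomerase II alpha, fell from 1198 ± 31.8 CPM to 750 ± 62.6 CPM and 670 ± 74.9 CPM (log2 change -0.76, adjusted p = 1.17e-05). The cell cycle phase of the cells was not measured.

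**Figure D4:**
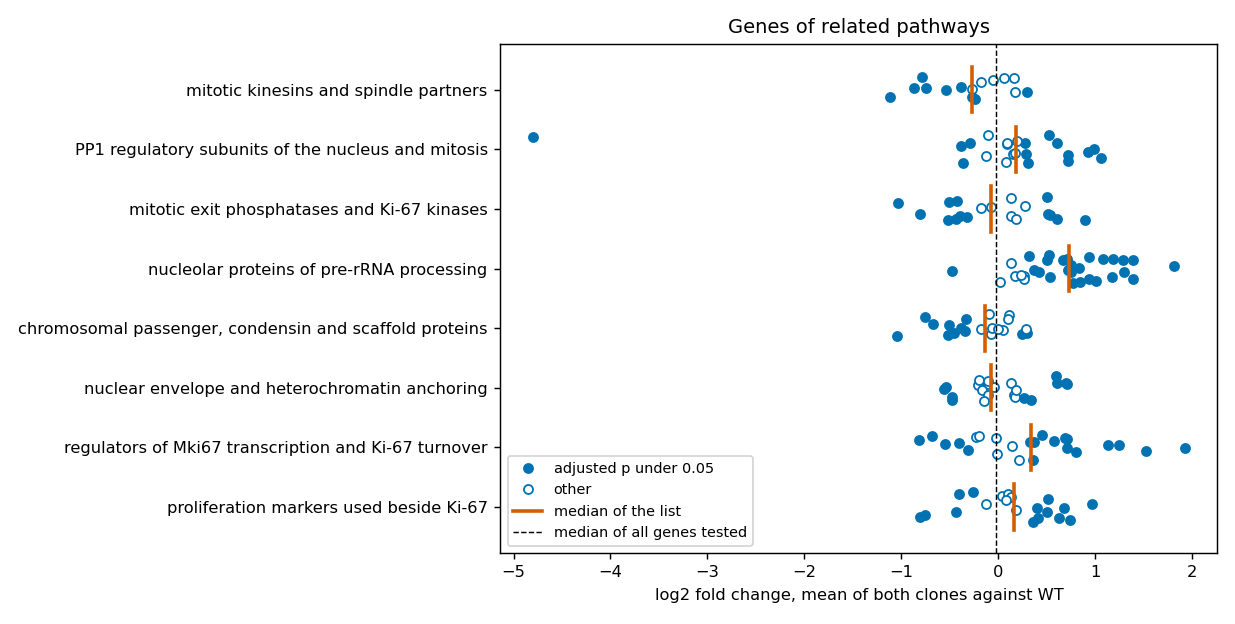
Log2 fold change of the mean of both clones against WT (x axis) for the genes of 8 pathway lists, 1 point for each gene, filled where the adjusted p is under 0.05. Bars mark list medians, from -0.27 for the kinesins to 0.73 for the nucleolar list, and the dashed line is the median of all genes tested, -0.02.

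**Figure D5:**
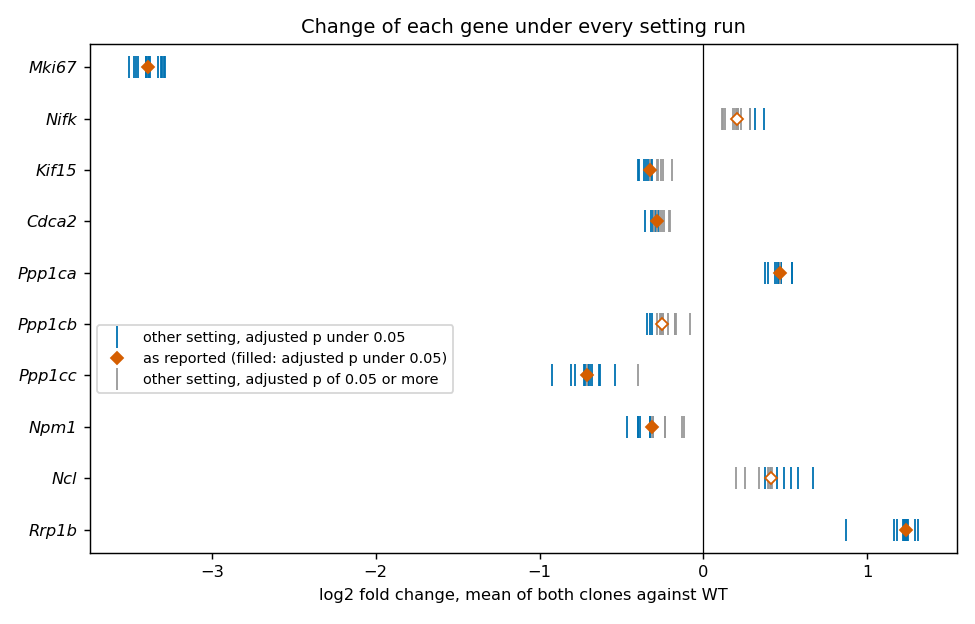
Log2 fold change of each of the 10 genes, mean of both clones against WT (x axis), under every processing setting run; diamonds are the reported values and ticks the other settings. Mki67 stays between -3.50 and -3.28 with any 1 library left out, and no setting brings a call of Mki67 or Rrp1b to an adjusted p of 0.05 or more.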

How the data were processed

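Stranded libraries were prepared from total RNA after removal of ribosomal RNA, per the labels' protocols, and reads were aligned to GRCm38 with STAR 2.6.0c, per the submitters' processing notes. The authors deposited raw read counts for every gene, without normalization, and column 4 (reverse strand, 92.3% to 95.7% of stranded gene reads) was used. Rows that name no gene held 8.49% to 14.0% (unmapped), 24.7% to 29.3% (several places), 9.21% to 13.5% (no gene) and 1.90% to 2.74% (ambiguous) of the reads and were left out. Gene names and positions were taken from GENCODE mouse release 21, which named 54079 of 54146 IDs.

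Tests used R 4.3.3, edgeR 4.0.16 and limma 3.58.1. filterByExpr left 13755 of 26172 genes with reads, libraries were scaled by TMM, and 1 quasi-likelihood model with a term per group was fitted to all 6 libraries, leaving 3 residual degrees of freedom and a common biological coefficient of variation of 10.3%. It was tested on simulated data. Contrasts were each clone and their mean against WT, and clone 2 against clone 1. The floor of 3 counts was 0.130 to 0.296 CPM and covers counting error only. Within each group the libraries were further apart than counting noise, with a chi-square of 86.9 (WT), 19.6 (clone 1) and 27.8 (clone 2) for each degree of freedom. Near-identical copies were sought with blastn 2.17.0 in GENCODE transcripts (at least 95% identity over 200 bases or more). Alternatives were DESeq2 1.42.0, upper-quartile scaling, no filter, a filter of 1 CPM in 2 libraries, unstranded counts, a required change above 1.5-fold, fits to the compared groups alone, a replicate block, chromosome medians removed, and omission of each library, after which the single library left is taken to vary as the other groups do.

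The members and lists were chosen with earlier results of these data known. Named were the 10 members, from each list the 2 genes called higher and 2 called lower that had the smallest adjusted p when the clones' mean was tested, and the 5 genes most like Mki67. A few of these are given by count only, and the result of 1 marker gene is not reported here.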

Additional observations from a re-analysis of the deposited data

Results flagged for a closer look

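Several named genes differed between the clones in the direct test of clone 2 against clone 1 (edgeR's quasi-likelihood test, Benjamini-Hochberg adjusted p over all genes, 23.5% of which were called). Among the members these were Mki67 (log2 difference -1.02, adjusted p = 0.000162), Npm1 (-0.73, adjusted p = 0.00326), Cdca2 (0.48, adjusted p = 0.00773) and Ppp1cb (-0.38, adjusted p = 0.0402). Clone 2 was lower than clone 1 in Kif11 (-0.68, adjusted p = 0.00213) and Mastl (-0.49, adjusted p = 0.0152). It was higher in Rrp9 (0.71, adjusted p = 0.000423), Aurka (0.55, adjusted p = 0.00371), Mybl2 (0.53, adjusted p = 0.00355) and Cdt1 (0.35, adjusted p = 0.0463), the last a licensing factor of DNA replication. The genes picked for their likeness to Mki67 were lower in clone 2 too, by -1.06 for Lrrn4cl, -1.33 for Trp53inp1, -0.98 for Klhl24, -1.48 for Gpr146 and -0.63 for Stat5a, a direction that the choice fixes.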

How the results depend on the processing

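Of the 10 genes, Mki67 and Rrp1b were called against WT in each clone and in their mean under every setting run, which include the 6 omissions of 1 library (the fit to the compared groups alone gives no mean of both clones). With a minimum change of 1.5-fold they were the 2 members still called in each of these contrasts (1 higher and 1 lower), and 1 member (0 higher, 1 lower) was called between the clones, when 2879 genes in all were called for the mean, 2686 for clone 1, 3035 for clone 2 and 343 between the clones. Without a filter, 4 members were higher and 2 lower in the mean and 4 higher in clone 1. With chromosome medians removed, 4 were higher and 2 lower in the mean and 4 higher in clone 2. When 1 library was left out, the members called for the mean were 2 to 4 higher and 2 to 6 lower, those of clone 1 were 1 to 4 higher, those of clone 2 were 4 to 8 in all and 1 to 5 lower, and those between the clones were 2 to 4 in all, 0 to 1 higher and 1 to 3 lower. All genes called between the clones then ranged from 766 to 4612.

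Calls for the mean of both clones in Kif15 (-0.32, adjusted p = 0.0179), Cdca2 (-0.28, adjusted p = 0.0226) and Npm1 (-0.31, adjusted p = 0.0486) were the least stable. Kif15 lost it without WT replicate 2, clone 1 replicate 1 or clone 2 replicate 1 (-0.28 to -0.26, adjusted p = 0.0661 to 0.0886), and Cdca2 without WT replicate 2, either clone 1 replicate or clone 2 replicate 1 (-0.30 to -0.24, adjusted p = 0.0566 to 0.115). Npm1 lost it without WT replicate 1 (-0.13, adjusted p = 0.466), clone 1 replicate 1 (-0.23, adjusted p = 0.153) or clone 2 replicate 1 (-0.23, adjusted p = 0.189). All 3 lost it without a filter and with chromosome medians removed. The cause was not tested.

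Members' changes that were not called as reported turned sign in some settings, and so did the called change of Ppp1r12a. With 1 library left out, the log2 change lay between -0.0010 and 0.33 for Nifk and between -0.11 and 0.016 for Cdca2 in clone 2, between -0.13 and 0.017 for Ppp1cb and between -0.12 and 0.23 for Npm1 in clone 1, and, between the clones, from -0.24 to 0.083 for Nifk, -0.0028 to 0.33 for Ppp1ca, -0.21 to 0.14 for Ppp1cc and -0.27 to 0.29 for Ncl. Without a filter Cdca2 in clone 2 was 0.025 and Ppp1cb in clone 1 was 0.025, with chromosome medians removed Ppp1cb in clone 1 was 0.11, Rrp1b between the clones was 0.33 and Ppp1r12a in the mean was 0.022, with unstranded counts Ppp1cc between the clones was 0.0095, and with upper-quartile scaling Npm1 in clone 1 was -0.0051. That scaling moved the median of all genes in clone 2 from -0.02 to -0.11.

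The Ppp1ca share was 85.6% in WT and 89.4% in clone 1 with unstranded counts, 65.3%, 72.3% and 78.9% in WT, clone 1 and clone 2 without division by length, and 87.4% and 90.8% in WT and clone 1 with the longest coding transcript as the length. The Ppp1cb share was 11.8% in WT and 9.31% in clone 1 unstranded, 32.4%, 26.5% and 19.97% without division by length, and 8.23% in clone 1 by the coding transcript, and Ppp1cc in clone 1 was 1.33%, 1.19% and 0.926% in these settings. The order of WT, clone 1 and clone 2 in the Ppp1ca share was the same in each.

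Samples of different groups share only a replicate number: the deviations of same-numbered libraries from their group means correlated at -0.156, 0.0819 and 0.00474 over genes. With the replicate number as a block, 7, 5, 7 and 4 members were called for the mean, clone 1, clone 2 and between the clones, as without it, and 7476, 6704, 7130 and 2942 genes in all. For low genes such as Phactr1, the floor of 3 counts limits what can be detected.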
